A study of Mus musculus with 24 samples.

Results

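Nr4a1, Nr4a2 and Nr4a3 are the members of the NR4A family of orphan nuclear receptors, and they are 3 of the 16233 genes in the deposited table of inguinal white adipose tissue. They were chosen by gene symbol, with earlier results of these data known, and all 3 were measured in every library. The table pairs Nr4a1 with ENSMUSG00000023034, Nr4a2 with ENSMUSG00000026826 and Nr4a3 with ENSMUSG00000028341. The mice were male C57BL6 with no other genotype named, 10 to 11 weeks old per the series' design text. They ran for 1 hour (RUN) or spent a sham hour on an artificial treadmill (SED), at ZT3 in the early rest phase or at ZT15 in the early active phase. ZT (zeitgeber time) is the hour after the lights come on. The labels put 6 libraries in each of the 4 groups and give the sampling time as ZT3 or ZT15. They do not give the hour between the bout and the sampling, so the time since exercise is not stated here. Libraries are named by time, treatment and replicate number, as in ZT3_SED_1, and the numbers pair no samples.

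NR4A receptors are transcription factors without an established physiological ligand, and their activity is set largely by how much of them is made. They are immediate early genes: their transcription rises quickly and briefly after signals such as beta-adrenergic stimulation, cAMP, calcium and stress, in part through CREB, a factor that binds cAMP response elements (CREs) in promoters. Nr4a1 (Nur77) and Nr4a3 (Nor1) rise in skeletal muscle after exercise and have been linked to fuel metabolism there. Nr4a1 and Nr4a2 (Nurr1) can pair with RXR receptors. In fat, all 3 respond to cold and to catecholamines.

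The promoters are shown because CREB sites are the textbook entry point of cAMP signals to these genes. Each window runs from 250 bases before to 50 bases after the RefSeq start (RefSeq, GRCm38.p6), and all 3 members matched the promoter table. Capitals mark TGACG, the core of a CRE, or CGTCA where the core lies on the opposite strand. The Nr4a1 window is chr15:101266596-101266895 on the plus strand, the Nr4a2 window is chr2:57123954-57124253 on the minus strand, and the Nr4a3 window is chr4:48045055-48045354 on the plus strand. The sequences below are written 5′ to 3′ along each gene.
Nr4a1: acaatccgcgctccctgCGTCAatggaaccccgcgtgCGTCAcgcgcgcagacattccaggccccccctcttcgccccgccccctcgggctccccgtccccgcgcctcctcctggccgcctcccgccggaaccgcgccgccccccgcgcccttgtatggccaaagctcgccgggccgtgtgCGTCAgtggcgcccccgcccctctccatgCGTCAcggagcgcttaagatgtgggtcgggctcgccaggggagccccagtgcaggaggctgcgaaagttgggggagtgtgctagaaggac
Nr4a2: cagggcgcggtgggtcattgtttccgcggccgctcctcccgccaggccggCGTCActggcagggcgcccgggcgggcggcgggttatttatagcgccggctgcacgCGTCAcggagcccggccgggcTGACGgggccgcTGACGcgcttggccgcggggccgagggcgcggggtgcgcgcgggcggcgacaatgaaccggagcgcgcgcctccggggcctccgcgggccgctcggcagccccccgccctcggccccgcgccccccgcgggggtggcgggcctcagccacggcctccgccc
Nr4a3: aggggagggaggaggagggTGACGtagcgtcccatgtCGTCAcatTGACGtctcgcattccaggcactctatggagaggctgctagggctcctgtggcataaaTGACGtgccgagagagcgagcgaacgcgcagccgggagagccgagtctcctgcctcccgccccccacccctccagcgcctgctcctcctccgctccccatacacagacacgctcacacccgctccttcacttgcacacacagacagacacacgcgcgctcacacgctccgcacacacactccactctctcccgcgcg

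Each of the 3 windows held 4 CRE cores, with both strands searched and overlapping matches counted. In Nr4a1 they began 233, 213, 69 and 40 bases before the start, all on the strand opposite the gene. In Nr4a2 they began 200, 144, 123 and 111 bases before it, and in Nr4a3 at 231, 213, 205 and 147 bases. Of 32851 promoter windows of the same length in the RefSeq table, 20.81% held at least 1 core and 76 (0.231%) held 4 or more. The windows differed in base composition, with a GC content of 72.3% in Nr4a1, 81.7% in Nr4a2 and 64.7% in Nr4a3. The shares over all windows were not matched for base composition, so they do not allow for it. The full palindrome TGACGTCA was in none of the 3 windows and in 1.79% of all windows. NBRE, the monomer response element AAAGGTCA that NR4A proteins themselves bind, was also in none of the 3 and in 1.51% of all. A MEF2 site, by which calcium signals reach Nr4a1 in other cells, was found in the Nr4a2 window alone and in 3.19% of all windows. These are matches of letters, and binding was not measured.

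**Figure D1:**
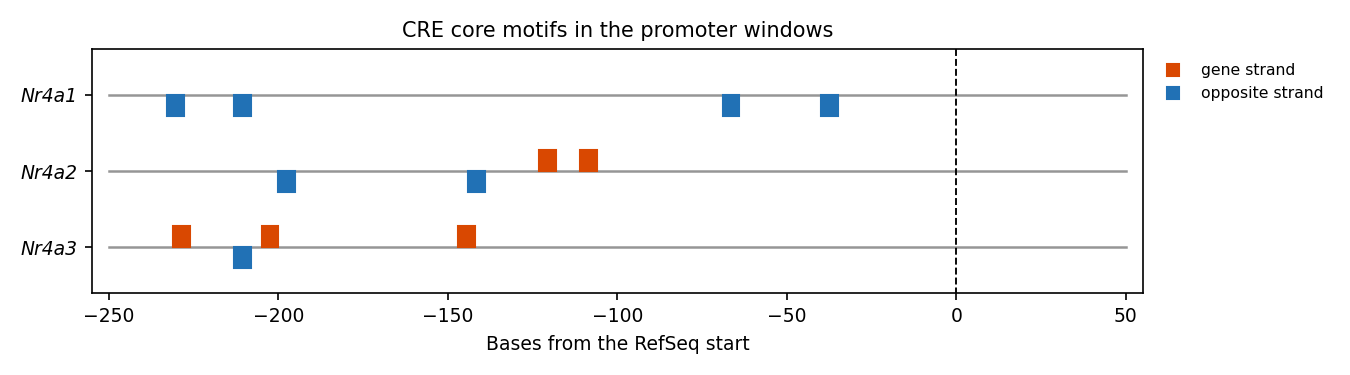
Positions of the CRE core motifs in the promoter windows of the 3 genes, in bases from the RefSeq start (dashed line). Orange boxes above the line lie on the gene's strand and blue boxes below it on the opposite strand; each gene has 4, all before the start.

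Over the listed genes, library depth was 18.5 to 34.7 mega reads, and the values are the authors' normalized signal, which is close to reads per mega reads. All 8 adipocyte markers were present, with a summed signal of 8963 to 25035 in every library. Other tissues varied far more. The summed signal of 9 skeletal muscle markers, all 9 in the table, ran from 22.0 to 37113 in ZT15 SED and from 155 to 41327 in ZT15 RUN, and from 44.2 to 16117 and from 351 to 11245 in the ZT3 groups. Cd79a, a B cell gene, was above 5 in 3 libraries (ZT3_RUN_4, ZT15_SED_3 and ZT15_SED_5), and the inguinal depot holds a lymph node. Bulk RNA was measured, so more cells of a type and more RNA per cell cannot be told apart. Nothing in the labels ties each library to a separate mouse, and p-values here rest on the spread from library to library.

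At ZT15 the exercised fat held several times more Nr4a RNA than the sham fat. The mean signal rose 6.63-fold for Nr4a1 and 8.90-fold for Nr4a3, and both passed the test over all genes, of which 0.641% passed. For Nr4a2 the ratio of means was 3.60 and the adjusted p just missed the threshold of 0.05. Among the 3, Nr4a3 was the gene whose groups did not overlap, with a lowest exercised value of 9.35 and a highest sham value of 8.48. The share of all genes without overlap was not computed.

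Nr4a1 signal in ZT15 SED was 27.6, 11.2, 8.33, 10.5, 10.9 and 4.69 in replicates 1 to 6. In ZT15 RUN it was 176, 42.5, 20.8, 66.5, 51.2 and 128. Of the 6 exercised libraries 5 lay above every sham library, and ZT15_RUN_3 lay below ZT15_SED_1. The means were 12.2 ± 7.92 and 80.8 ± 59.1 (SD, n = 6 each), resting on 105 to 812 reads per sham library and 598 to 4879 per exercised library. On the scale of log2(signal + 1), the difference was 2.48 ± 0.50 (SE; limma, adjusted p = 0.0237), with a 95% interval of 1.44 to 3.52.

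Nr4a3 signal in ZT15 SED was 4.11, 3.87, 6.08, 3.85, 8.48 and 2.37. In ZT15 RUN it was 49.3, 28.3, 9.35, 49.6, 43.5 and 76.1. The lowest exercised library (ZT15_RUN_3, 9.35) stood just above the highest sham library (ZT15_SED_5, 8.48), while the other 5 stood well clear of it. The means were 4.79 ± 2.16 and 42.7 ± 22.5 (SD, n = 6 each), from 53 to 242 reads per sham library and 269 to 1735 per exercised library. The log2 difference was 2.76 ± 0.56 (SE; limma, adjusted p = 0.0237), with a 95% interval of 1.61 to 3.91.

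Nr4a2, the least abundant of the 3, had signals of 6.22, 2.24, 3.36, 3.95, 3.33 and 4.78 in ZT15 SED. In ZT15 RUN the signals were 30.8, 6.97, 5.28, 9.42, 8.89 and 24.6. ZT15_RUN_1 and ZT15_RUN_6 carried most of the gap, and ZT15_RUN_3 again lay below ZT15_SED_1. The means were 3.98 ± 1.38 and 14.3 ± 10.6 (SD, n = 6 each). The log2 difference was 1.40 ± 0.33 (SE; limma, adjusted p = 0.0503), with a 95% interval of 0.71 to 2.08.

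In this comparison 104 of 16233 genes passed, with 78 higher and 26 lower. That count ran from 16 without ZT15_RUN_4 to 293 without ZT3_RUN_4 when 1 library was left out, and 0.641% is the share with all 24. By size of the log2 difference Nr4a3 ranked at 2 and Nr4a1 at 3 among all genes, and Nr4a2 at 69. By p-value they ranked at 36, 39 and 109. Leaving out 1 library at a time, Nr4a1 passed in 18 of 24 fits (limma, adjusted p up to 0.0612, without ZT15_RUN_5) and Nr4a3 in 19 of 24 (up to 0.0741, without the same library). On the reads recovered from the signal, edgeR called all 3 (0.745% of genes called), and DESeq2 called all 3 as well (3.75% of genes called). With neighbouring title numbers as a replicate block, neither Nr4a1 nor Nr4a3 passed (limma, adjusted p = 0.0553 and 0.0915). In the runs of title numbers 1 to 8, 9 to 16 and 17 to 24, each with 2 libraries of every group, the log2 difference was 3.32, 2.24 and 1.89 for Nr4a1, 1.67, 1.72 and 0.80 for Nr4a2, and 3.37, 2.94 and 1.96 for Nr4a3. It was above 0 in each run for each gene. The labels do not say what the title numbers mean.

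**Figure D2:**
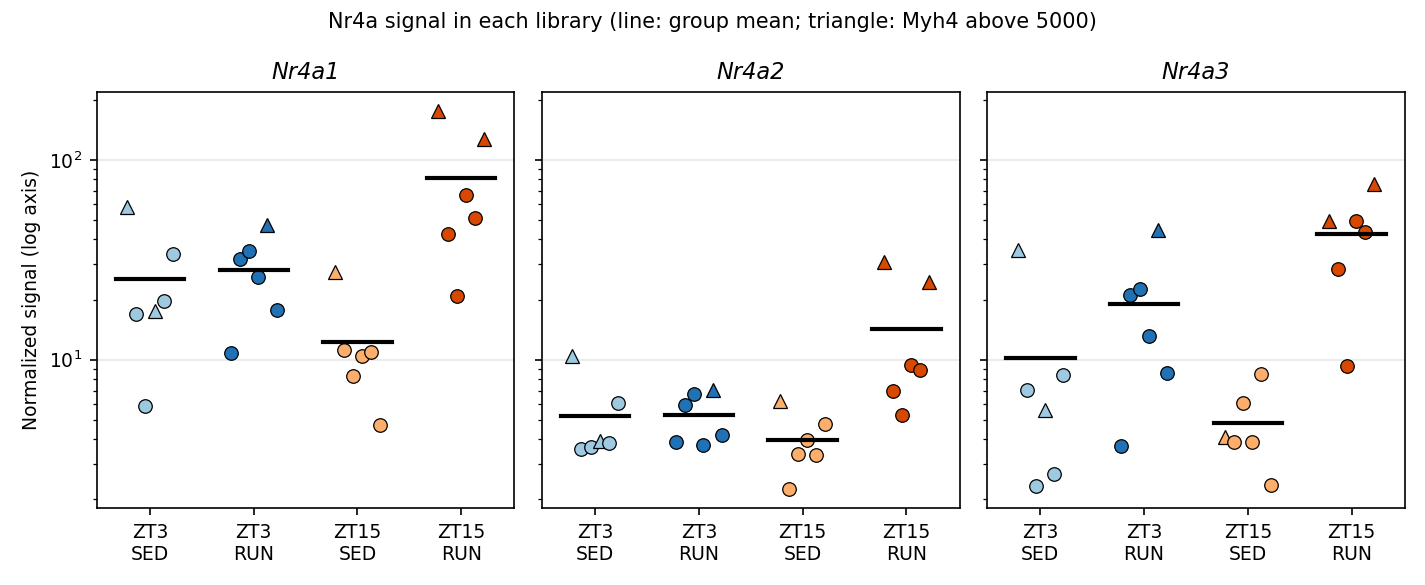
Normalized signal (log axis) of the 3 genes in each library, 6 points per group, with a line at the group mean; triangles are the 6 libraries with a Myh4 signal above 5000. At ZT15 the exercised libraries of Nr4a3 lie at 9.35 and above and the sham libraries at 8.48 and below, whereas the ZT3 groups overlap for all 3 genes.

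In each group the library highest in a given Nr4a gene was set beside its muscle RNA. Myh4, a fast myosin of skeletal muscle, was highest of its group in ZT3_SED_1 (8207) and in ZT3_RUN_5 (5208), and in both of these all 3 Nr4a genes were at their group's highest. By the sum of the 9 muscle markers, ZT3_SED_4 (16117) stood slightly above ZT3_SED_1 (15744), and its Nr4a1 was 17.5. ZT15_SED_1 had the highest Myh4 of its group (18297) and the highest Nr4a1 and Nr4a2, but its Nr4a3 of 4.11 was near the group's median of 3.99. The highest Nr4a3 of that group was 8.48 in ZT15_SED_5, whose Myh4 of 0.631 was the group's lowest. In ZT15 RUN, ZT15_RUN_1 (Myh4 8995) was highest in Nr4a1 and Nr4a2, and ZT15_RUN_6 (Myh4 22113) in Nr4a3. By the marker sum, 6 of the 12 highest values fell in the library of its group with the most muscle RNA. The same 2 libraries held Ucp1, the uncoupling protein of brown and beige fat, at 532 and 526, against at most 17.7 in the other ZT15 RUN libraries.

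Without the 6 libraries with Myh4 above 5000, an alternative chosen after seeing the data, the ZT15 differences were 2.13 for Nr4a1 (limma, adjusted p = 0.0825), 0.93 for Nr4a2 (adjusted p = 0.103) and 2.37 for Nr4a3 (adjusted p = 0.104). The direction held, and neither call did, in a comparison left with 5 sham and 4 exercised libraries in which 6 genes passed. A fit with the muscle score as a covariate was also added after seeing the data, and its share of all genes passing is not given here. In it all 3 passed, with differences of 2.37 for Nr4a1, 1.32 for Nr4a2 and 2.69 for Nr4a3 (limma, adjusted p = 0.0229, 0.0432 and 0.0280). Without the 3 libraries high in Cd79a they were 2.41, 1.32 and 3.05 (limma, adjusted p = 0.0836, 0.141 and 0.0605). With the group means subtracted, the correlation over 24 libraries with the summed muscle markers was 0.40 for Nr4a1, 0.48 for Nr4a2 and 0.25 for Nr4a3 (Pearson; Spearman 0.40, 0.37 and 0.24; permutation p = 0.0743, 0.0350 and 0.230). With the summed brown fat markers it was 0.56, 0.53 and 0.18 (Pearson; Spearman 0.52, 0.43 and 0.19; permutation p = 0.0126, 0.0419 and 0.446). Without ZT15_RUN_1 and ZT15_RUN_6 these fell to 0.42, 0.26 and 0.05. After adjustment over 9 relations with muscle, brown fat and lymphocyte markers, the smallest adjusted p was 0.113 in these permutation tests, so none passed. The summed brown fat markers (4 of 4 in the table) ran from 80.9 to 486 in ZT15 SED and from 64.7 to 1078 in ZT15 RUN. The summed lymphocyte markers (12 of 12 in the table) ran from 10.2 to 897 in ZT15 SED and from 6.19 to 14.6 in ZT15 RUN, and from 10.6 to 16.1 and 8.46 to 1302 in the ZT3 groups. Without the Myh4 or Cd79a libraries, or with the muscle covariate, the ZT15 differences of Nr4a1 and Nr4a3 stayed above 2 on the log2 scale.

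At ZT3 the exercised and sham groups overlapped for all 3 genes. Nr4a1 signal in ZT3 SED was 58.1, 16.9, 5.89, 17.5, 19.7 and 33.8, and in ZT3 RUN it was 10.8, 31.9, 35.2, 25.9, 47.3 and 17.7. None of the 6 exercised libraries exceeded ZT3_SED_1. The means were 25.3 ± 18.4 and 28.1 ± 13.0 (SD, n = 6 each), and the log2 difference of 0.30 ± 0.50 (SE) had a 95% interval of -0.74 to 1.34 (limma, adjusted p = 0.989).

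Nr4a2 was nearly level at ZT3. It was 10.4, 3.56, 3.66, 3.92, 3.84 and 6.06 in ZT3 SED, and 3.89, 5.91, 6.71, 3.74, 7.09 and 4.21 in ZT3 RUN. The means were 5.24 ± 2.69 and 5.26 ± 1.495 (SD, n = 6 each), and the 95% interval of the log2 difference was -0.63 to 0.74.

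Nr4a3 was the most variable of the 3 at this time. In ZT3 SED it was 35.2, 7.09, 2.33, 5.62, 2.68 and 8.43, a coefficient of variation of 122%. In ZT3 RUN it was 3.68, 21.2, 22.5, 13.1, 44.8 and 8.60. The log2 difference was 1.01 ± 0.56 (SE; limma, adjusted p = 0.989), with a 95% interval of -0.14 to 2.16. In the title-number runs it was 2.11, -1.35 and 2.28, so the direction turned in the run from 9 to 16, which holds ZT3_SED_1. No gene of the 16233 passed at ZT3 with limma (0%), 368 had an unadjusted p under 0.05, and edgeR and DESeq2 called 0.

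Whether exercise acted differently at the 2 times was tested as the interaction. The ZT15 difference was larger than the ZT3 difference by 2.18 ± 0.71 for Nr4a1, 1.34 ± 0.47 for Nr4a2 and 1.75 ± 0.79 for Nr4a3 on the log2 scale (SE). Unadjusted p-values were 0.00556, 0.00902 and 0.0364, and the limma adjusted p was 0.583 for each. With limma 0 genes passed here (0%), 1273 had an unadjusted p under 0.05, and edgeR called 0. DESeq2 called 239 genes, 1.47% of those it tested, among them Nr4a1 at 2.57 (adjusted p = 0.0229) and Nr4a2 at 1.85 (adjusted p = 0.0452) but not Nr4a3. For these 2 genes the difference in response between times thus passed with 1 tool and not with the other 2.

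Averaged over both times, exercise gave 1.39 ± 0.36 for Nr4a1, 0.73 ± 0.23 for Nr4a2 and 1.89 ± 0.39 for Nr4a3 (SE; limma, adjusted p = 0.108, 0.242 and 0.0520), none past the threshold where 0.142% of genes passed. In sham fat the ZT15 signal was lower than the ZT3 signal by amounts within the spread: the log2 difference was -0.88 ± 0.50 for Nr4a1, -0.28 ± 0.33 for Nr4a2 and -0.51 ± 0.56 for Nr4a3 (SE; limma, adjusted p = 0.524, 0.796 and 0.781, with 1.18% of genes called). In exercised fat it was higher, by 1.30 ± 0.50, 1.06 ± 0.33 and 1.24 ± 0.56 (SE; limma, adjusted p = 0.145, 0.0717 and 0.206), and again none passed where 4.19% of genes did. These comparisons share their groups with the exercise comparisons above.

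**Figure D3:**
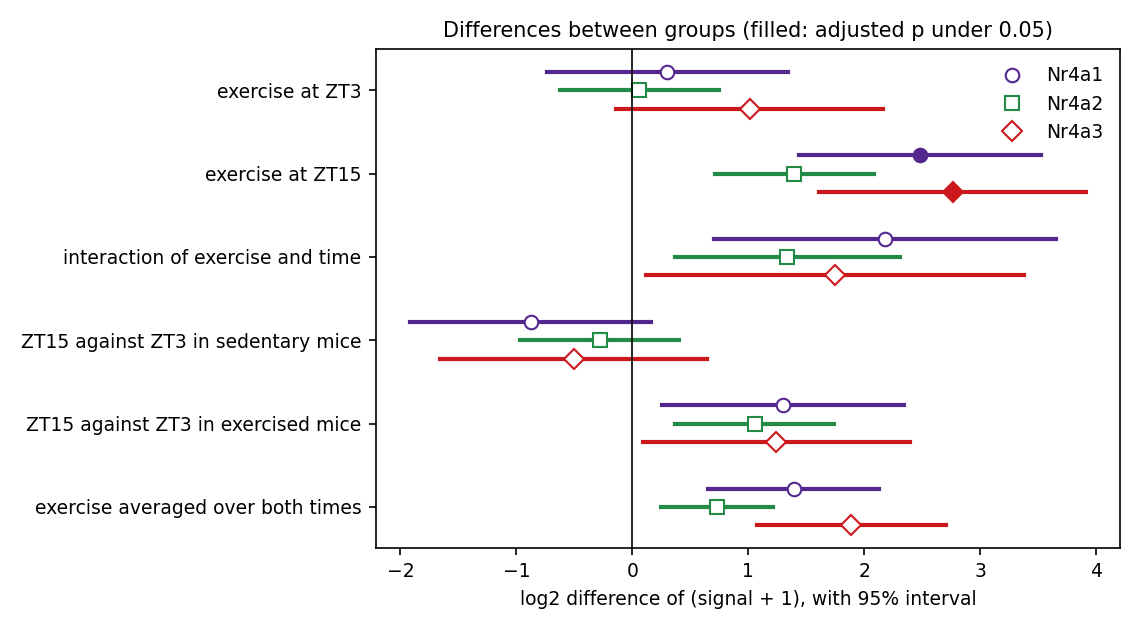
Log2 differences of (signal + 1) for the 3 genes in 6 comparisons, with 95% intervals; filled symbols passed at an adjusted p under 0.05 (limma). The filled symbols are Nr4a1 (2.48) and Nr4a3 (2.76) for exercise at ZT15.

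All 3 genes had the same order of group means: ZT15 RUN, then ZT3 RUN, then ZT3 SED, then ZT15 SED. Most neighbours in that order did not differ beyond their spread. The step from ZT3 RUN to ZT15 RUN in Nr4a3, from 19.0 ± 14.6 to 42.7 ± 22.5 (SD, n = 6 each), was the single one larger than the greater SD of its pair. That is a description, and the step did not pass the test (limma, adjusted p = 0.206). Per kilobase of exon (GENCODE M21 models of 3509, 4059 and 5987 bases), Nr4a1 had the highest mean level in every group. In ZT15 RUN the level per kilobase was 23.0 ± 16.8 for Nr4a1, 3.53 ± 2.62 for Nr4a2 and 7.13 ± 3.75 for Nr4a3 (SD, n = 6). In ZT15 SED it was 3.476 ± 2.258, 0.981 ± 0.339 and 0.801 ± 0.361, so there Nr4a2 and Nr4a3 differed by less than their spread. Over all libraries, mean signal placed Nr4a1 at percentile 68.5 of the table, Nr4a3 at 54.0 and Nr4a2 at 36.1.

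The 3 genes rose and fell together from library to library. With group means subtracted, Pearson's r over 24 libraries was 0.80 between Nr4a1 and Nr4a3 (Spearman 0.79; permutation p = 1e-05, the smallest that 100000 draws can give, and 4e-05). It was 0.80 between Nr4a1 and Nr4a2 (Spearman 0.71; permutation p = 6e-05 and 0.00066), and 0.64 between Nr4a2 and Nr4a3 (Spearman 0.62; permutation p = 0.0005 and 0.00227). Adjusted over the 3 relations, the permutation p-values of Pearson's r were 3e-05, 9e-05 and 0.0005. Without the 2 libraries farthest from the median, r was 0.72, 0.79 and 0.67. All 3 genes were read in the same libraries, which differ in depth and tissue makeup as given above.

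Within single groups the picture was uneven. Nr4a1 and Nr4a3 followed each other closely in ZT3 RUN (r = 0.99, rho = 1.0; exact permutation p = 0.0014, the smallest that the 720 pairings can give, and 0.0028; adjusted over 12 relations, 0.0083). Nr4a1 and Nr4a2 did so in ZT15 RUN (r = 0.97, rho = 1.0; exact permutation p = 0.0014 and 0.0028; adjusted 0.0083). In ZT15 SED, where all 3 were low, r was 0.26, 0.33 and -0.32 for the 3 pairs, and none passed in the exact permutation test. The ratio of Nr4a3 to Nr4a1 within a library was 0.354 ± 0.161 in ZT3 SED, 0.597 ± 0.207 in ZT3 RUN, 0.479 ± 0.241 in ZT15 SED and 0.598 ± 0.207 in ZT15 RUN (SD, n = 6), so it overlapped between groups.

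**Figure D4:**
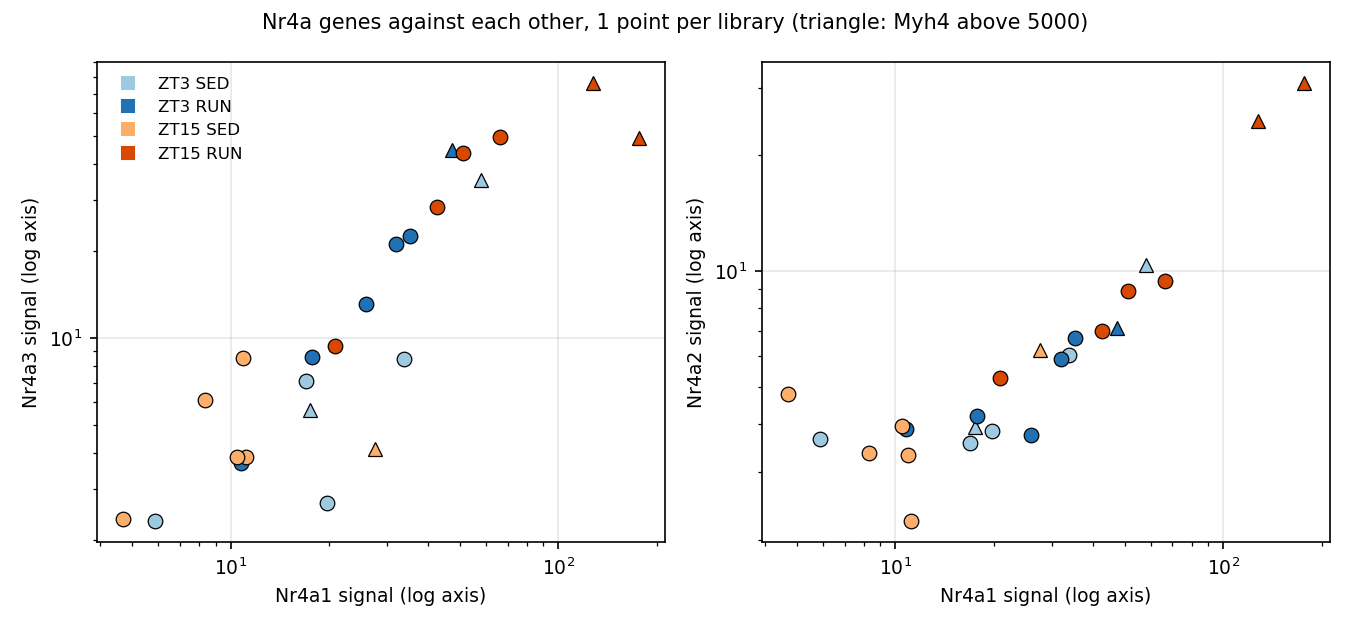
Nr4a3 (left) and Nr4a2 (right) against Nr4a1 signal, log axes, 1 point per library coloured by group; triangles are libraries with Myh4 above 5000. Libraries high in one gene are mostly high in the others, least so in ZT15 SED, and the 2 points at the upper right for Nr4a2 are ZT15_RUN_1 and ZT15_RUN_6.

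Among 8022 named genes of above-median level, those most like each member over the 24 libraries were found by Pearson's r, as a description with no test. Sik1, a kinase that CREB induces and that restrains CREB coactivators, was the most like Nr4a3 (r = 0.96) and stood at r = 0.89 with Nr4a1. Nr4a3 was next most like Apold1 (0.93), an endothelial early response gene, Sdc4 (0.93), Emd (0.92) and Crem (0.91), a CREB-related factor. Nr4a1 was most like Zfp516 (0.90), a factor that promotes brown fat genes, then Sik1, Coq10b (0.85), Slc25a25 (0.85) and Gadd45g (0.85). Nr4a2 was most like Nr4a1 itself (0.88), Coq10b (0.87), Pde4d (0.86), a cAMP phosphodiesterase, Ppargc1a (0.86), a coactivator of mitochondrial genes, and Mapkapk2 (0.84).

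With group means subtracted, the genes most like Nr4a1 were Coq10b (0.81), Sik1 (0.80), Atf4 (0.79), Zfp516 (0.79) and Sgk1 (0.79). Those most like Nr4a3 were Sik1 (0.91), Sdc4 (0.88), Emd (0.85), Mafk (0.85) and Apold1 (0.84), and those most like Nr4a2 were Tob2 (0.85), Bap1 (0.83), Itprid2 (0.82), Mapkapk2 (0.80) and Nr4a1 (0.80). The lists of 5 shared 3 genes for Nr4a1, 2 for Nr4a2 and 4 for Nr4a3 with the lists from the raw values. By Spearman's rho, none of the 5 for Nr4a2 returned. The ZT15 exercise libraries entered this choice, so the genes' differences at ZT15 follow in part from it and are given as a description: on the log2 scale they ran from 0.02 in Bap1 to 1.97 in Apold1.

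The cAMP and CREB list was drawn from a pathway upstream of the Nr4a genes. It also holds Sik1, which CREB itself induces, so a rise in a member is not by itself a rise upstream. Of its 25 listed members, 2 rose with exercise at ZT15 and 23 did not pass, where 0.641% of all genes passed. Sik1 went from 46.3 ± 10.7 to 149 ± 48.2 and Crem from 18.5 ± 1.97 to 45.5 ± 11.9 (SD, n = 6), log2 differences of 1.63 ± 0.30 and 1.21 ± 0.22 (SE; limma, adjusted p = 0.0170 and 0.0169). Adrb3, the main beta receptor of fat cells, was at -0.11 ± 0.22 (SE; limma, adjusted p = 0.888) and was named after its values were seen. The list's median was 0.18 at ZT15, with 20 of 25 above 0, and -0.10 at ZT3, with 9 of 25 above 0. Over all genes the medians were 0.003 and 0.006, with 50.7% and 51.8% above 0. Pde3b, an insulin-activated phosphodiesterase, was higher at ZT15 than at ZT3 in exercised fat, by 0.64 ± 0.16 (SE; limma, adjusted p = 0.0299). It was the 1 member of the 25 that passed there, where 4.19% of all genes passed.

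The calcium, MEF2 and MAP kinase list, the other route to NR4A genes, had 0 of 23 members past the threshold for exercise at either time (0.641% of all genes at ZT15 and 0% at ZT3), with medians of 0.03 at ZT15 and 0.01 at ZT3. In exercised fat, where 4.19% of all genes passed, 3 of the 23 members were higher at ZT15 than at ZT3: the class IIa deacetylase Hdac4 by 0.41, the kinase Camk2d by 0.37 and the calcineurin subunit Ppp3r1 by 0.32 (limma, adjusted p = 0.0300, 0.0162 and 0.00924).

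Every other immediate early gene of the list had a smaller difference at ZT15 than Nr4a1 and Nr4a3. Of 31 listed, 3 rose with exercise at ZT15, where 0.641% of all genes passed, and 28 did not pass. The AP-1 subunit Fosl2 went from 77.5 ± 17.2 to 214 ± 47.1, the small Maf factor Maff from 4.61 ± 1.47 to 14.3 ± 6.55, and Dusp1, a MAP kinase phosphatase, from 39.5 ± 9.93 to 100.3 ± 33.9 (SD, n = 6). Their log2 differences were 1.45 ± 0.27, 1.34 ± 0.29 and 1.31 ± 0.24 (SE; limma, adjusted p = 0.0169, 0.0326 and 0.0169). The list's median was 0.80 at ZT15, with 27 of 31 above 0, and -0.15 at ZT3, with 15 above 0. At ZT3 the values went below 0 for some: Egr1 was at -1.44 ± 0.52 (SE; limma, adjusted p = 0.989), with 70.7 ± 56.5 in sham and 23.8 ± 21.8 in exercised fat (SD, n = 6). Sham fat differed by time in 2 of the 31, where 1.18% of all genes passed: Fos fell by 2.45 and Ccn1 fell by 1.54 from ZT3 to ZT15 (limma, adjusted p = 0.0132 and 0.0337).

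**Figure D5:**
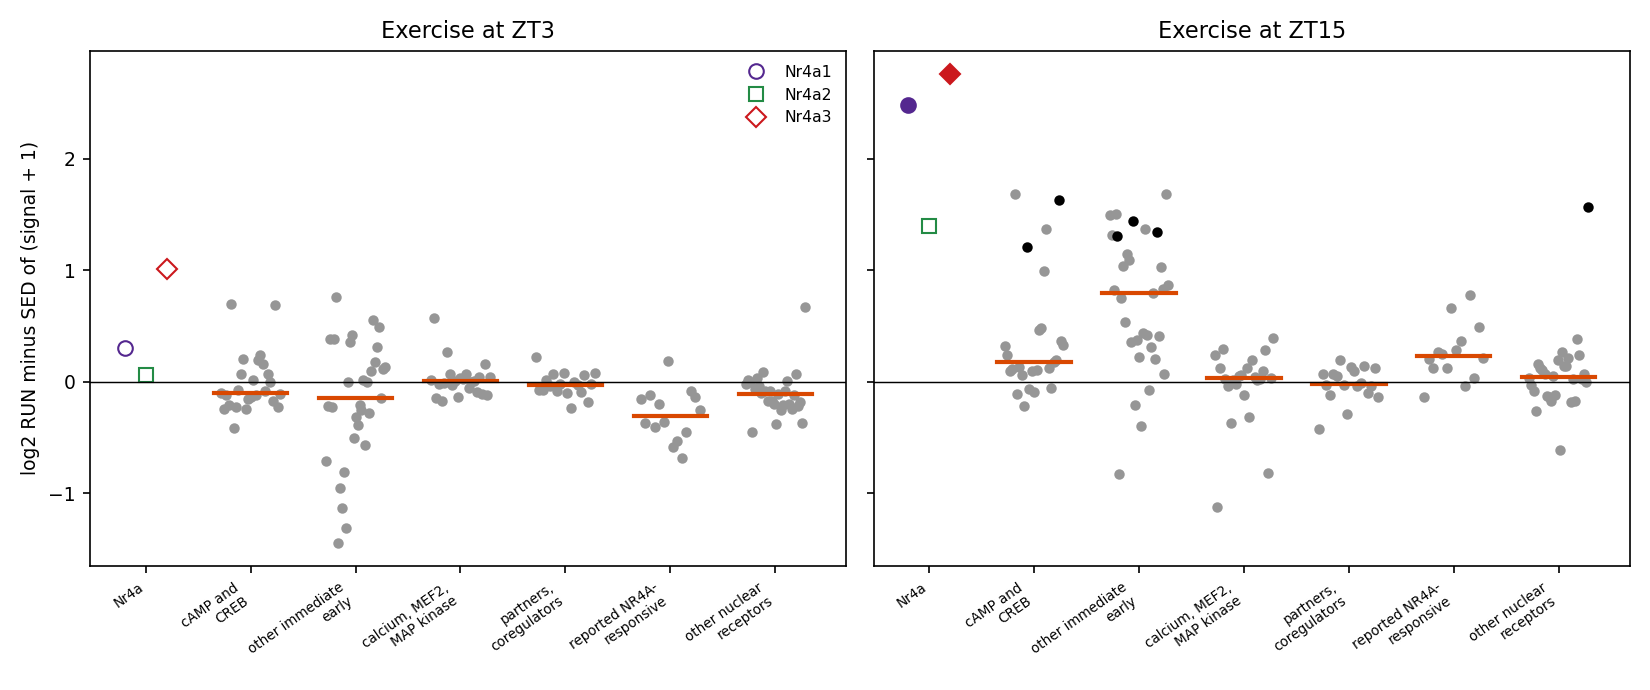
Log2 RUN minus SED of (signal + 1) at ZT3 (left) and ZT15 (right) for the 3 Nr4a genes and each measured member of 6 gene lists (dots; black where the adjusted p was under 0.05), with orange lines at list medians. Nr4a3 (2.76) and Nr4a1 (2.48) lie above every listed gene at ZT15.

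Of 18 partners and coregulators of NR4A proteins, including the RXR partners and the NCoR and CoREST corepressor components, 0 passed at ZT15 (median -0.02; 0.641% of all genes passed) or at ZT3 (median -0.02; 0% passed). Ncoa1, a steroid receptor coactivator, was at 0.19 ± 0.06 for exercise at ZT15 (SE; limma, adjusted p = 0.164), and it was higher at ZT15 than at ZT3 in exercised fat by 0.36 ± 0.06 (SE; limma, adjusted p = 0.00223). In that last comparison 1 of the 18 passed, and 4.19% of all genes did.

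Of 17 genes reported elsewhere as NR4A-responsive in muscle and liver, 14 were in the table and 0 passed for exercise at either time, against 0.641% of all genes at ZT15 and 0% at ZT3. The median was 0.23 at ZT15, with 12 of 14 above 0, and -0.31 at ZT3, with 1 of 14 above 0. Several of them are skeletal muscle genes, and the muscle markers moved the same way: 9 of 9 were above 0 at ZT15 (median 0.95) and 0 of 9 at ZT3 (median -0.41), none past the threshold. Their part in the list's values was not tested. Lpin1, a phosphatidate phosphatase of lipid synthesis that fat itself expresses, had the smallest p at ZT15, with 732 ± 106 in sham and 1168 ± 227 in exercised fat (SD, n = 6) and a log2 difference of 0.66 ± 0.20 (SE; limma, adjusted p = 0.122). In exercised fat it was higher at ZT15 than at ZT3 by 0.82 ± 0.20 (SE; limma, adjusted p = 0.0217). Of the 14 measured, 1 passed in that comparison, where 4.19% of all genes did.

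Of 30 other nuclear receptors listed, 28 were in the table, and 1 rose with exercise at ZT15, where 0.641% of all genes passed: Vdr, the vitamin D receptor, which is not an orphan, from 0.8402 ± 0.306 to 4.74 ± 1.98 (SD, n = 6), a log2 difference of 1.57 ± 0.31 (SE; limma, adjusted p = 0.0212). The list's median was 0.05 at ZT15 and -0.11 at ZT3. Time of day moved others: from ZT3 to ZT15, 1 of the 28 rose and 2 fell in sham fat, where 1.18% of all genes passed. In exercised fat 2 of the 28 rose and 1 fell, where 4.19% of all genes passed. In sham fat Nr1d1, a clock repressor, fell by 3.05 and Thra, a thyroid hormone receptor, fell by 0.55 from ZT3 to ZT15 (limma, adjusted p = 7.97e-10 and 0.0333). In exercised fat Nr1d1 fell by 2.86 and Rora, a clock activator, rose by 0.54 from ZT3 to ZT15 (limma, adjusted p = 3.14e-09 and 0.0426).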

How the data were processed

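RNA was sequenced from inguinal white adipose tissue in 24 libraries of 4 groups, made with a stranded total RNA kit after ribosomal RNA removal, per the labels' protocols. Per the submitters' processing notes the tools included STAR, featureCounts, Subread 1.6.2 and limma 3.48.3, with no role stated for any. The sources used here do not give the build, annotation, strand setting or filter on low genes, so reads of overlapping or antisense genes cannot be told apart. The authors deposited normalized signal, 1 column per library. Each value was a whole multiple of 1 read's worth (100% whole within 0.01 of a read), and the scaling equalled recomputed TMM factors to a relative 2.22e-16. For the 60 library pairs within groups, chi-square per degree of freedom was 22.8 or more, so none was a duplicate within sampling noise.

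The test was limma 3.58.1 (R 4.3.3) on log2(signal + 1), which understates changes of low genes, with an intensity trend in 1 group-means model over 24 libraries and Benjamini-Hochberg adjustment over 16233 genes, threshold 0.05, two-sided. The test was also run on simulated counts with the same spread set for every gene and no difference in tissue makeup between libraries. That run does not cover the spread of these data, and its outcome is not given here. Permutation tests were two-sided. edgeR 4.0.16 and DESeq2 1.42.0 ran on the recovered reads. Beside the 3 genes, the text names list members past the threshold (up to 4 per list and comparison), or else the 2 of smallest p, and the 5 genes most like each member. Any other is said to be chosen after its values were seen. Some list genes that this rule would name are not reported here. The members and lists were chosen with earlier results of these data known. Leaving out libraries high in Myh4, the muscle score as sole covariate and the correlations with marker sums were added after seeing the data. Genes were matched to GENCODE M21 names (16233 of 16233) and promoters to RefSeq GRCm38.p6.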

Additional observations from a re-analysis of the deposited data

Results flagged for a closer look

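Dixon's test at the 95% level was applied to the 12 gene and group combinations, on the signal and not on its log2. Chance flags about 1 in 20 where values are normally distributed, which was not checked here. In 3 of the 12 combinations 1 library stood apart from the other 5, above the critical gap of 0.625 of the range. Whether these libraries would stand apart on the log2 scale was not tested. Nr4a3 was at 35.2 in ZT3_SED_1, with a gap of 0.815 of the group's range. Nr4a2 was at 10.4 in the same library (0.635). Nr4a1 was at 27.6 in ZT15_SED_1 (0.717). Both libraries have the highest Myh4 signal of their group (8207 and 18297), and the part of muscle RNA in these values was not tested. Both are sham libraries, so they narrow the gap to the exercised group of their own time. Without ZT3_SED_1 the interaction of Nr4a3 was 1.30, against 1.75 with all libraries. At ZT15 the exercised libraries highest in an Nr4a gene, ZT15_RUN_1 and ZT15_RUN_6, also had high Myh4 (8995 and 22113), and they widen the gap.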

How the results depend on the processing

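Over 14 alternatives, the exercise difference at ZT15 stayed above 0 for all 3 genes, from 2.13 to 2.73 for Nr4a1 (11 past the threshold), 0.93 to 1.85 for Nr4a2 (8) and 2.37 to 3.16 for Nr4a3 (11). Nr4a2 came to pass with quantile normalization (1.46), median centring (1.45), the genes of lowest level left out or no trend (1.40), a pseudocount of 0.1 (1.58), the muscle covariate (1.32), edgeR (1.85) and DESeq2 (1.85). Nr4a1 and Nr4a3 did not pass without the libraries high in Cd79a (2.41 and 3.05) or in Myh4 (2.13 and 2.37). Neighbouring title numbers as a replicate block, a pairing that the labels do not give, left the estimates at 2.48 and 2.76 with adjusted p of 0.0553 and 0.0915 (limma). Genes past the threshold at ZT15, 104 in the main test, were 19 with the block, 22 without the Cd79a libraries, 6 without the Myh4 libraries and 561 with DESeq2. The split of higher to lower calls was 67 to 5 with quantile normalization, 139 to 16 with median centring and 329 to 232 with DESeq2. The cause was not tested.

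In the ZT15 to ZT3 comparison of exercised fat, Nr4a2 passed with lymphocyte and muscle covariates (1.08), the muscle covariate (1.09), edgeR (1.45) and DESeq2 (1.45), and Nr4a1 with DESeq2 (1.52). DESeq2 also called the interaction for Nr4a1 (2.57) and Nr4a2 (1.85), where it called 1.47% of the genes it tested. It called the average for Nr4a1 (1.45), Nr4a2 (0.93) and Nr4a3 (2.03). For the other calls in this paragraph, the share of all genes called in the same fit is not given here. The average of Nr4a3 passed with median centring (1.91), a pseudocount of 0.1 (2.06) and both covariates (1.91). Nr4a3 turned from -0.51 to 0.01 in the ZT15 to ZT3 comparison of sham fat without the Myh4 libraries.

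Leaving out each of 24 libraries in turn gave ZT15 differences of 2.19 to 2.80 for Nr4a1, 1.13 to 1.599 for Nr4a2 and 2.55 to 3.13 for Nr4a3, past in 18, 5 and 19 of 24 fits. Nr4a1 lost its call without ZT15_SED_3, ZT15_SED_6, ZT15_RUN_1, ZT15_RUN_4, ZT15_RUN_5 or ZT15_RUN_6, and Nr4a3 without the same libraries other than ZT15_SED_3. At ZT3 the differences ran from -0.026 to 0.59 for Nr4a1 and -0.022 to 0.25 for Nr4a2. Averages ran from 1.23 to 1.55 for Nr4a1 and 1.73 to 2.11 for Nr4a3, and Nr4a2 in exercised fat from 0.79 to 1.26.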
